A study of Mus musculus with 13 samples.

Results

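The Rab family of small GTPases was described here in the RNA of fat cells from mice on chow or on a high-fat diet (HFD). Members were all gene rows whose symbol is Rab followed by a number and at most a letter and a digit, with Rab10 left out, which gave 43 genes of the 11761 gene rows listed. The animals were Adipoq-NuTRAP mice on the C57BL/6J background, and both diet groups carried this transgenic system and were fed their diet for 10 weeks. NuTRAP marks ribosomes with GFP and nuclei with mCherry where Cre is active, and the Adipoq promoter, which is active in fat cells, drives Cre here. RNA bound to tagged ribosomes was pulled from homogenate of epididymal white fat with an antibody against GFP, in 3 chow libraries and 3 HFD libraries. The labels used here give no age or sex and do not say whether each library is a different animal. The p-values therefore measure only how far these libraries scatter, and that scatter may be technical. The 7 chromatin samples of the series (5 for H3K27ac and 2 for PPARG) were not analysed here.

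Rab proteins mark the membranes of the cell and direct vesicle budding, transport and fusion. Each cycles between an active form bound to GTP and an inactive form bound to GDP: exchange factors switch it on, GTPase-activating proteins switch it off, and effectors such as motors and tethers bind the active form. A lipid tail added to the end of the protein anchors it in membrane, and the GDP dissociation inhibitors extract it again. In fat cells Rab proteins are known for the insulin-driven delivery of the glucose transporter GLUT4 to the surface, for secretion, and, in the case of RAB18, for lipid droplets.

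Values are given per library in CPM, the read count of a gene scaled to the effective size of its library. The CPM of the listed genes totalled 1182123 in chow replicate 3 and 984422 to 1030469 in the others. Effective library sizes ran from 7430000 reads in chow replicate 3, the shallowest, to 39400000 in HFD replicate 3. A single read was worth 0.135 CPM on chow replicate 3 and at most 0.0431 CPM in the others. Fold changes are HFD minus chow on log2(CPM + 1), which understates the change of genes near or under 1 CPM. Residual ribosomal RNA (Rn45s) was also highest in chow replicate 3, at 23170.5 CPM against 4068 to 12503 CPM in the others. That library was the highest or lowest chow value for 33 of the 43 Rab genes (76.7%), and for 78.0% of all tested genes. CPM values do not account for gene length, so levels are compared between diets and not between genes.

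As a family the Rab genes changed about as often as other genes, and the changes were spread over several roles. All 43 passed the filter on low values and were tested. With limma and Benjamini-Hochberg adjustment over all 11643 tested genes (threshold 0.05), 10 Rab genes were higher and 5 lower in HFD, and 28 did not pass. This is 34.9% of the family against 35.1% of all tested genes. Rab27a and Rab27b passed the filter only through HFD, where they are higher. Among genes with both diet means at 1 CPM or more, 8 of 41 Rab genes were higher (19.5%, against 17.5% of 11295 genes) and 5 lower (12.2% against 16.3%). Over all 43, the share higher was 23.3% against 19.1% of all genes, and the share lower 11.6% against 16.0%. The diets' libraries did not overlap for 23 Rab genes (53.5%), against 50.2% of all genes. The median log2 fold change was 0.17 over the Rab genes and -0.004 over all genes. Summed over the 43 members, the level was 3116, 3355 and 3798 CPM on chow and 3055, 3563 and 3489 CPM on HFD, so the diets overlapped. These counts moved with the libraries used: 5 Rab genes were higher and 5 lower without chow replicate 1, 9 and 4 without chow replicate 2, and 5 and 4 without chow replicate 3. They were 9 and 2, 4 and 2, and 4 and 2 without HFD replicates 1, 2 and 3. Scaling mattered too, since quantile normalization gave 6 higher and 6 lower, and equal CPM totals gave 11 and 3. Equal CPM totals also moved the median of all genes to 0.10. The counts of all genes moved as well, from 2221 higher and 1863 lower. They were 1984 and 2295 with quantile normalization, and 2513 and 1333 with equal CPM totals. With a library left out they ran from 1688 to 2101 higher and from 1162 to 1740 lower.

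**Figure D1:**
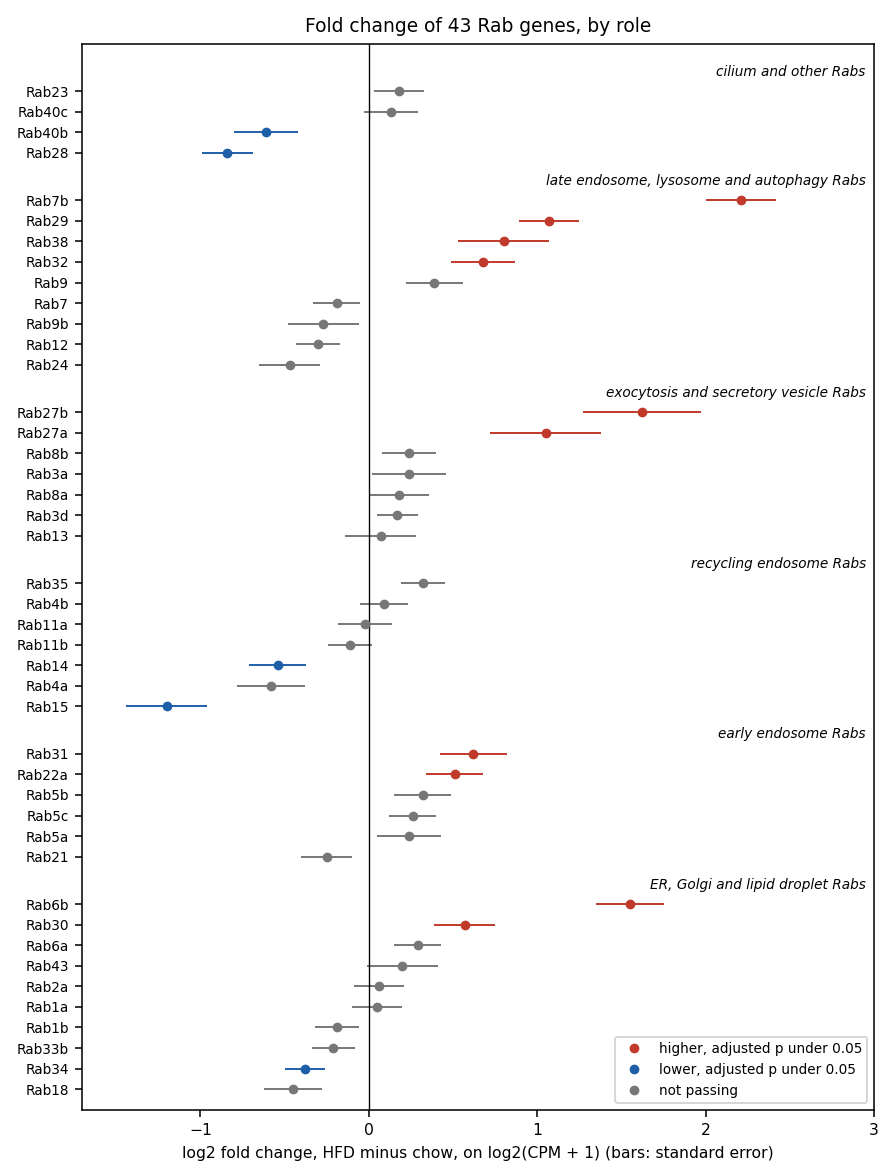
Each point is the log2 fold change (HFD minus chow, on log2(CPM + 1), x axis) of a Rab gene (y axis, grouped by role), with its standard error as a bar, 3 libraries per diet. Red and blue points passed the threshold as higher or lower, and Rab7b at 2.21 and Rab15 at -1.20 mark the ends.

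**Figure D2:**
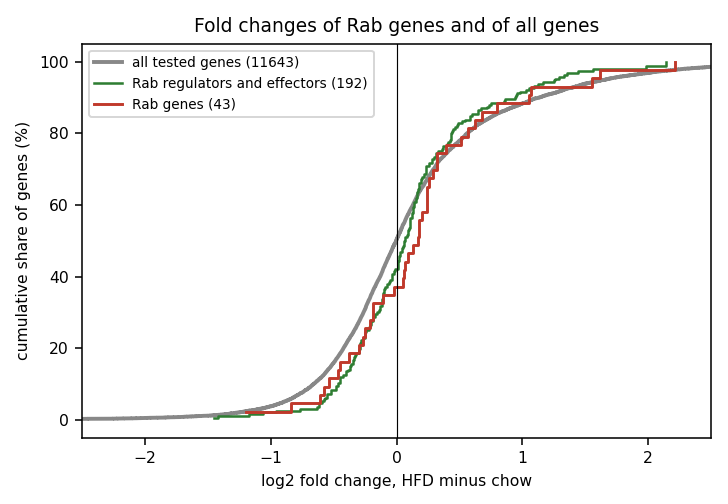
The x axis is the log2 fold change (HFD minus chow) and the y axis the cumulative share of genes in percent. Curves are for all 11643 tested genes, the 43 Rab genes, and 192 genes of the Rab cycle and GLUT4 vesicles. The legend names the last set Rab regulators and effectors. The Rab curve lies to the right of the curve of all genes near 0, with medians of 0.17 and -0.004.

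The 5 members that passed in every alternative tried were Rab7b, Rab6b and Rab29, which rose, and Rab15 and Rab28, which fell. Rab7b, a late endosomal and lysosomal Rab that also acts in transport back to the Golgi, stood at 3.12, 2.27 and 2.03 CPM on chow and 17.3, 13.5 and 14.3 CPM on HFD, a 6.08-fold rise of the mean. Every HFD library lay far above every chow library. The log2 fold change came to 2.21 (SE 0.21, limma adjusted p 9.05e-05), and the chow values rest on 15 to 73 reads. Rab6b, a form of the Golgi Rab RAB6 best known from neurons, stood at 6.36, 4.23 and 4.99 CPM on chow and 14.3, 17.5 and 19.3 CPM on HFD. Its rise was 3.28-fold (log2 fold change 1.55, SE 0.20, limma adjusted p 0.000492), without overlap. Rab29, a Golgi and lysosomal Rab known to recruit the kinase LRRK2, stood at 25.1, 30.7 and 26.5 CPM on chow and 44.6, 67.6 and 66.7 CPM on HFD. It rose 2.17-fold (log2 fold change 1.07, SE 0.18, limma adjusted p 0.00196), with HFD replicate 1 the lowest of the HFD libraries and still above chow.

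Rab15, an endosomal Rab studied mainly in neurons, stood at 12.8, 8.63 and 10.5 CPM on chow and 2.87, 4.32 and 5.17 CPM on HFD. It was the strongest fall of the family, 2.58-fold (log2 fold change -1.20, SE 0.24, limma adjusted p 0.00484), and no HFD library reached a chow value. Rab28, a distant member of the family linked to cilia and photoreceptors, stood at 86.8, 85.6 and 103 CPM on chow and 45.3, 60.1 and 48.2 CPM on HFD. Its fall was 1.80-fold (log2 fold change -0.84, SE 0.15, limma adjusted p 0.00243), again without overlap.

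**Figure D3:**
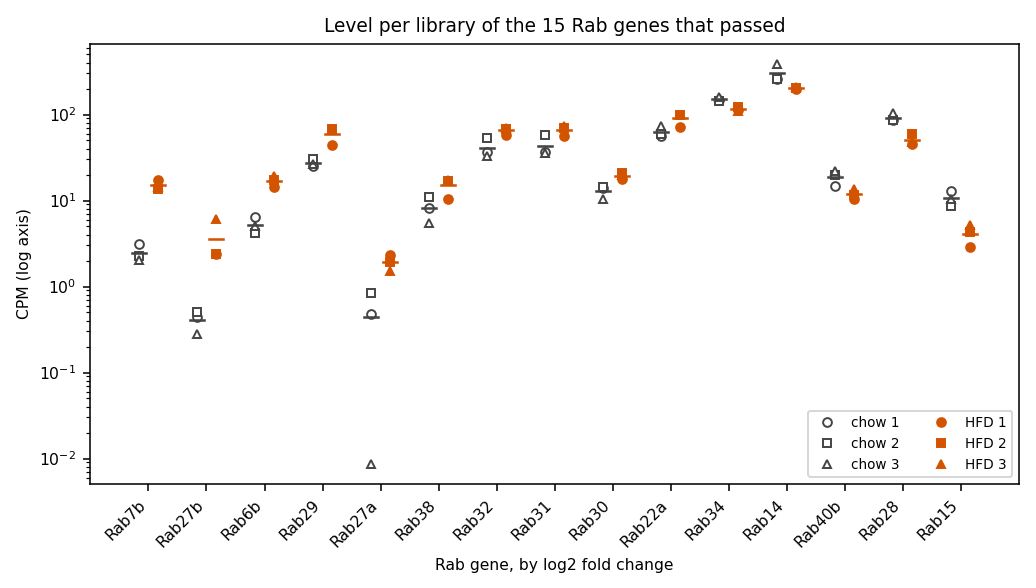
Level per library in CPM (y axis, log scale) of the 15 Rab genes that passed the threshold (x axis, ordered by log2 fold change). Open grey marks are chow, filled orange marks HFD, marker shapes give the replicate and short lines the group means. The 3 libraries of each diet are apart for Rab7b, Rab6b and Rab29, and the lowest mark is Rab27a in chow replicate 3, where 0 reads were found.

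On GRCm38.p6, Rab7b lies on chromosome 1 at 131688681 to 131715443 and Rab29 on the same chromosome at 131867210 to 131872887, with 152 kb between them. The 4 annotated genes in that gap hold 2 that were listed, chosen for this position after values were seen. Pm20d1, which encodes a secreted enzyme of N-acyl amino acids, rose from a mean of 3.15 to 15.0 CPM (log2 fold change 1.95, SE 0.28, limma adjusted p 0.000773). Slc41a1, a magnesium transporter gene, stood at 35.5 and 42.1 CPM and did not pass (0.25, SE 0.14, limma adjusted p 0.185). Rab6b lies on chromosome 9 at 103111667 to 103185276, Rab15 on chromosome 12 at 76797960 to 76822759, and Rab28 on chromosome 5 at 41624973 to 41708193. Of the 43 members 17 overlap another annotated gene span, but only Rab6a overlaps a gene listed in the table (Mrpl48). Reads of overlapping exons cannot be told apart here, because the library kit does not mark strand.

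The 250 bases before an annotated start are shown for the members above that have a RefSeq promoter window (GRCm38.p6), so that the start regions of genes that rose can be set beside those of genes that fell. Capitals mark a match to a searched motif, and letters run 5′ to 3′ on the gene's strand. Rab29 is chr1:131867027-131867276 on the plus strand, Rab6b chr9:103111824-103112073 on the plus strand, Rab15 chr12:76822525-76822774 on the minus strand (the outermost of its 4 windows), and Rab28 chr5:41708180-41708429 on the minus strand.
Rab29: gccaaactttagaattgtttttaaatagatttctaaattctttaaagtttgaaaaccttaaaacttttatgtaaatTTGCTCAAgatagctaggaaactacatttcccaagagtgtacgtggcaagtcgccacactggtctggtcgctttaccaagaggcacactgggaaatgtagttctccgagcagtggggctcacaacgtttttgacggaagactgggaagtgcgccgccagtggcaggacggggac
Rab6b: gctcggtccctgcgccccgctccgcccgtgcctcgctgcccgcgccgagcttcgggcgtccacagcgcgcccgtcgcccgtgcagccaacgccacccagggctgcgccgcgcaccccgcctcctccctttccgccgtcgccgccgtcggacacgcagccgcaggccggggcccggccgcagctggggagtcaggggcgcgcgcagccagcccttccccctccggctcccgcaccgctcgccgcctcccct
Rab15: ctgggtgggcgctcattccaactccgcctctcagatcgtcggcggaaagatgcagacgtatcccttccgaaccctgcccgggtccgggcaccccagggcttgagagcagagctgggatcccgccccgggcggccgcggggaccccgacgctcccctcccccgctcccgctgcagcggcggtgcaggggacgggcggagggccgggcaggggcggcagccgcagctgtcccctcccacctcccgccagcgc
Rab28: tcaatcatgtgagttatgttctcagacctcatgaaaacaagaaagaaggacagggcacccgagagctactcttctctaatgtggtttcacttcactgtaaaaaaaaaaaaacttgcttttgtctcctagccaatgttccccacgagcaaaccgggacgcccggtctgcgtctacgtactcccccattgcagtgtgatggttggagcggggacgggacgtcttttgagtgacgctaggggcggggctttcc
The G and C content of these stretches was 44.0% for Rab29, 80.8% for Rab6b, 75.2% for Rab15 and 50.4% for Rab28, with a high and a low value among both the risen and the fallen genes. The median was 61.2% over 48 windows of 36 Rab genes and 52.4% over 32851 windows of all genes. Motifs were searched on both strands of the 300-base windows, from 250 before to 50 after a start. Of the 15 members that passed, 11 had a window. Rab7b, Rab27b, Rab30 and Rab38, which rose, had none here and were not searched. The C/EBP motif TTGCNNAA, in capitals in Rab29, was in 4 Rab windows (8.33%) and in 10.8% of all windows. The E-box CACGTG was in 5 Rab windows (10.4%) and 7.15% of all windows. Those were windows of Rab5a, Rab21, Rab23, Rab24 and Rab27a, of which only Rab27a passed the test. The extended form TCACGTGA, which contains that E-box, is known from lysosomal genes. It was in 3 Rab windows (6.25%), those of Rab5a, Rab21 and Rab24, and in 0.974% of all windows. None of those 3 genes passed the test. The AP-1 motif TGANTCA was in a window of Rab34 and in an inner window of Rab15 that is not shown (4.17%, against 7.81% of all). The SMAD palindrome GTCTAGAC was in another Rab15 window, further inside the gene (2.08% against 0.213%). GAGGAAGT, a PU.1 motif, was in the window of Rab32 (2.08% against 3.20%), and CCGGAAGT, an ETS motif, in those of Rab11a and Rab24 (4.17% against 3.89%). The PPAR response element, 2 AGGTCA repeats with 1 base between them, was in 0 Rab windows and 0.0396% of all. A match of letters is a description of the window.

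Among the 9 Rabs of late endosomes, lysosomes and autophagy, 4 rose and 0 fell (44.4% called, against 35.1% of all genes). The fold changes of 5 members were positive and of 4 negative, with a median of 0.39 on the log2 scale. Beside Rab7b and Rab29 these were Rab32 and Rab38, closely related Rabs of lysosome-related organelles such as melanosomes. Rab32 stood at 36.8, 53.8 and 32.9 CPM on chow and 57.3, 68.1 and 70.5 CPM on HFD. The groups were apart, though chow replicate 2 came near HFD replicate 1 (log2 fold change 0.68, SE 0.19, limma adjusted p 0.0206). Rab38 stood at 8.22, 10.9 and 5.54 CPM on chow and 10.4, 17.0 and 17.5 CPM on HFD, where HFD replicate 1 lay below chow replicate 2 (0.80, SE 0.27, limma adjusted p 0.0439). The Rab32 call was lost without chow replicate 1 or 3 or HFD replicate 2 or 3 (adjusted p 0.0506, 0.0581, 0.0678 and 0.0778). The Rab38 call was lost without the same libraries (adjusted p 0.0653, 0.120, 0.137 and 0.151), with quantile normalization (0.109) and with voom weights (0.0941).

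Rab7 itself, the main Rab of fusion between late endosomes and lysosomes, stood at 185, 189 and 246 CPM on chow and 174, 182 and 182 CPM on HFD. Every HFD library lay just below chow, with chow replicate 3 highest, but the gene did not pass (log2 fold change -0.19, 95% interval -0.50 to 0.12, limma adjusted p 0.315). Per 100 CPM of Rab7 there were 1.69, 1.20 and 0.826 CPM of Rab7b in chow and 9.94, 7.38 and 7.86 in HFD. Taken on log2(CPM + 1), which damps the low Rab7b values, the difference between these relatives moved by 2.40. The exact two-sided permutation p was 0.1, the smallest that 3 against 3 libraries can give. Rab9, of the route from late endosomes to the Golgi, had 44.0, 54.9 and 44.0 CPM on chow and 50.9, 75.1 and 63.6 CPM on HFD, and its relative Rab9b 14.6, 14.2 and 12.6 against 8.34, 11.7 and 14.6 CPM. Neither passed (0.39 and -0.27, limma adjusted p 0.102 and 0.350), although Rab9 did without HFD replicate 1 (adjusted p 0.0452). Rab24, tied to the clearance of autophagosomes, and Rab12, which directs receptors to lysosomes, were below chow in all 3 HFD libraries but did not pass (-0.47 and -0.30, limma adjusted p 0.0709 and 0.102). Rab24 passed without chow replicate 2 (adjusted p 0.0126).

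Of the 7 Rabs of exocytosis, 2 passed, the granule-docking relatives Rab27a and Rab27b (28.6%, against 35.1% of all genes). The other 5 had positive log2 fold changes and did not pass; of all tested genes, 5773 of 11643 were positive. Rab27a stood at 0.483 CPM (11 reads) and 0.841 CPM (27 reads) in chow replicates 1 and 2, with 0 reads in chow replicate 3, and at 2.30, 1.95 and 1.51 CPM on HFD. At that replicate's depth a count of 0 allows a level of up to 3 reads, or 0.404 CPM. Rab27b stood at 0.438, 0.503 and 0.277 CPM on chow (2 to 16 reads) and 2.36, 2.41 and 6.02 CPM on HFD, where HFD replicate 3 was far above the other HFD libraries. Both genes passed the filter on low values only through HFD, since their chow levels were under 1 CPM. Their calls are therefore no support for a trend in the group; with no filter the limma adjusted p was 0.0248 for Rab27a and 0.00506 for Rab27b. The log2 fold changes were 1.05 (SE 0.33, limma adjusted p 0.0345) for Rab27a and 1.62 (SE 0.35, limma adjusted p 0.00653) for Rab27b. The size depends on the scale at such low levels: with a pseudocount of 0.25 CPM the values were 1.86 for Rab27a and 2.44 for Rab27b, and with voom weights 2.61 and 2.96. Used directly, the deposited log2 values gave 3.04 for Rab27b. The Rab27b call was lost only with quantile normalization (0.89, adjusted p 0.0865). The Rab27a call was lost there (0.26, adjusted p 0.510), with the deposited log2 values used directly (3.63, adjusted p 0.122), and without chow replicate 1 or 3 or HFD replicate 1, 2 or 3 (adjusted p 0.0549, 0.0714, 0.0914, 0.0912 and 0.0535).

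Rab3d, the Rab3 form known from fat cells and glands, stood at 215, 254 and 258 CPM on chow and 259.6, 271 and 286 CPM on HFD. Its HFD libraries lay just above chow, but the gene did not pass (0.17, 95% interval -0.11 to 0.45, limma adjusted p 0.315). Rab3a, the synaptic form, had 9.06, 8.94 and 9.71 CPM on chow and 14.4, 11.4 and 8.17 CPM on HFD, a spread that overlapped. Rab8a and Rab13 act in GLUT4 delivery in muscle cells, and Rab8a and Rab8b carry Golgi vesicles to the surface. Rab8a stood at 42.8, 56.9 and 43.7 CPM on chow and 44.3, 65.8 and 53.4 CPM on HFD (0.18, 95% interval -0.22 to 0.58). Rab13 stood at 18.4, 19.3 and 29.4 CPM on chow and 20.8, 27.5 and 21.4 CPM on HFD (0.07, 95% interval -0.39 to 0.53). Rab8b ranged from 27.5 to 33.1 CPM on chow and from 30.3 to 42.5 CPM on HFD. For these 5 genes the intervals reach from below 0 to upper limits between 0.45 (Rab3d) and 0.72 (Rab3a). Differences within each gene's own interval are not excluded.

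Of the 7 Rabs of recycling endosomes, 2 fell and 0 rose: Rab15, above, and Rab14. The share called was 28.6%, against 35.1% of all genes, and the median -0.11. Rab14, which runs between the Golgi and endosomes and has been tied to GLUT4 vesicles, stood at 259.6, 259.6 and 388 CPM on chow and 197, 205 and 208 CPM on HFD. The HFD libraries lay close together below all chow libraries, and chow replicate 3 was far above the rest. The log2 fold change came to -0.54 (SE 0.17, limma adjusted p 0.0306), a fall of 1.49-fold in the mean. Without chow replicate 3 it was -0.35 (adjusted p 0.0276). Leaving out HFD replicate 1, 2 or 3 ended the call (adjusted p 0.0862, 0.0775 and 0.0759). Rab4a, of fast recycling, had 6.06, 7.94 and 6.19 CPM on chow and 4.06, 4.32 and 4.03 CPM on HFD, and stood just outside the threshold (-0.58, SE 0.20, limma adjusted p 0.0504). It passed with no filter on low values (adjusted p 0.0473), quantile normalization (0.00604) and voom weights (0.0344).

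Rab4b, its close relative, had 18.8, 18.9 and 19.6 CPM on chow and 20.5, 20.5 and 19.8 CPM on HFD (0.09, limma adjusted p 0.659). Per 100 CPM of Rab4b there were 31.6 to 42.0 CPM of Rab4a in chow and 19.8 to 21.0 in HFD, groups that did not overlap (exact permutation p 0.1, the smallest possible). Rab11a, the central Rab of slow recycling, stood at 111, 100.4 and 134 CPM on chow and 97.0, 132 and 113 CPM on HFD. Its relative Rab11b stood at 73.0, 64.0 and 79.9 CPM on chow and 63.1, 64.0 and 74.0 CPM on HFD. Both overlapped between diets (-0.02, 95% interval -0.37 to 0.34, and -0.11, -0.41 to 0.20), and both signs turned with equal CPM totals (0.09 and 0.0046). Rab35, another Rab of fast recycling, had 44.6 to 45.9 CPM on chow and 52.0 to 63.6 CPM on HFD and did not pass (0.32, limma adjusted p 0.0770), except with equal CPM totals (0.43, adjusted p 0.0421).

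Of the 6 Rabs of early endosomes, 2 rose and 0 fell (33.3% called, against 35.1% of all genes; median 0.29). Rab31, also called Rab22b, moves cargo between the Golgi and endosomes and has been tied to the retention of GLUT4 inside fat cells. It stood at 36.8, 57.7 and 35.5 CPM on chow and 55.7, 69.6 and 73.0 CPM on HFD, where chow replicate 2 lay above HFD replicate 1 (0.62, SE 0.20, limma adjusted p 0.0365). Rab22a, its relative, stood at 55.7, 58.9 and 74.5 CPM on chow and 72.5, 99.0 and 99.0 CPM on HFD, again with a slight overlap (0.51, SE 0.17, limma adjusted p 0.0425). The Rab31 call was lost with voom weights (adjusted p 0.0512) and without chow replicate 1 or 3 or HFD replicate 2 or 3 (0.0922, 0.105, 0.106 and 0.126). The Rab22a call was lost without chow replicate 1 or 2 or HFD replicate 2 or 3 (0.112, 0.106, 0.136 and 0.152).

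The 3 forms of Rab5, the Rab of early endosome fusion, did not pass. Rab5a stood at 77.7, 105 and 73.5 CPM on chow and 77.2, 117 and 109 CPM on HFD. Rab5b stood at 85.6, 109.9 and 74.5 CPM on chow and 95.0, 126 and 114 CPM on HFD. Rab5c, with 96.3, 124 and 126 CPM on chow and 131, 139 and 144 CPM on HFD, was the form whose diets did not overlap. The log2 fold changes were 0.24, 0.32 and 0.26 for Rab5a, Rab5b and Rab5c, with limma adjusted p of 0.365, 0.177 and 0.163. Rab21, of integrin uptake, had 105 to 137 CPM on chow and 84.4 to 112 CPM on HFD (-0.25, limma adjusted p 0.235).

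Of the 10 Rabs of the ER, the Golgi and lipid droplets, 2 rose and 1 fell (30% called, against 35.1% of all genes; median 0.06). Beside Rab6b the risen member was Rab30, a Golgi Rab, with 13.8, 14.5 and 10.3 CPM on chow and 17.9, 20.7 and 19.7 CPM on HFD. Its groups were apart (0.57, SE 0.18, limma adjusted p 0.0322). Rab34, known from lysosome positioning and from cilium formation, fell from 147, 143 and 161 CPM on chow to 113, 122 and 109.9 CPM on HFD (-0.38, SE 0.12, limma adjusted p 0.0292). The Rab30 call was lost with quantile normalization (adjusted p 0.0701) and without chow replicate 3 or HFD replicate 1, 2 or 3 (0.0562, 0.0532, 0.101 and 0.106). The Rab34 call was lost with equal CPM totals (0.0918) and without chow replicate 1 or 2 or HFD replicate 1, 2 or 3 (0.0600, 0.0517, 0.0754, 0.0516 and 0.122).

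Rab18, the lipid droplet Rab, stood at 191, 191 and 286 CPM on chow and 151, 158 and 172 CPM on HFD. Every HFD library lay below chow, but the gene did not pass (-0.45, SE 0.17, limma adjusted p 0.0664). Without chow replicate 1 the adjusted p was 0.0475. Rab1a, of transport from the ER to the Golgi, stood at 272, 271 and 365 CPM on chow and 280.1, 333 and 319.6 CPM on HFD. Its relative Rab1b stood at 236, 259.6 and 284 CPM on chow and 223, 246 and 214 CPM on HFD. Both overlapped between diets (0.05, 95% interval -0.29 to 0.39, and -0.19, -0.47 to 0.09). Rab6a, the widespread form of RAB6, had 99.0, 112 and 105 CPM on chow and 109, 140.1 and 141 CPM on HFD (0.29, limma adjusted p 0.129). Per 100 CPM of Rab6a there were 3.77 to 6.43 CPM of Rab6b in chow and 12.5 to 13.7 in HFD. Taken on log2(CPM + 1), the difference between them moved by 1.26 (exact permutation p 0.1, the smallest possible). Rab2a, Rab33b and Rab43, also of the secretory route, did not pass (0.06, -0.21 and 0.20, limma adjusted p 0.778, 0.249 and 0.472).

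Of the other 4 members, 2 fell, Rab28 and Rab40b (50% called, against 35.1% of all genes). Rab40b, whose protein joins a ubiquitin ligase through a SOCS box, stood at 14.8, 19.6 and 21.9 CPM on chow and 10.3, 11.6 and 13.7 CPM on HFD (-0.61, SE 0.19, limma adjusted p 0.0355). The call was lost with equal CPM totals (adjusted p 0.0694) and without chow replicate 2 or 3 or HFD replicate 1, 2 or 3 (0.0937, 0.0871, 0.109, 0.0901 and 0.0516). Rab40c, the related ubiquitin ligase Rab, had 15.2, 15.1 and 13.5 CPM on chow and 17.8, 15.2 and 15.3 CPM on HFD (0.13, limma adjusted p 0.542). Per 100 CPM of Rab40c there were 97.3 to 162 CPM of Rab40b in chow and 58.2 to 89.5 in HFD. Rab23, a brake on Hedgehog signalling, had 18.1 to 20.3 CPM on chow and 20.4 to 24.3 CPM on HFD (0.18, limma adjusted p 0.360).

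Markers of cell types other than fat cells were also higher in the HFD libraries. Of 15 macrophage markers 13 rose and 1 fell (Cd14), with a summed level of 121 to 150.0 CPM on chow and 370.0 to 580.2 CPM on HFD. Of 10 endothelial markers 9 rose, with sums of 29.2 to 82.6 and 148 to 286 CPM, and all 7 listed of 8 smooth muscle and pericyte markers rose, with sums of 103 to 133 and 664 to 972 CPM. None of these 32 markers was at 0 reads in any library. Fcgr1, Cd68, Trem2, Emcn and Erg had chow means under 1 CPM and passed the filter on low values only through HFD. The calls of those genes are therefore no support for a rise of their lists. The fibroblast sums overlapped (1584 to 2626 against 1383 to 2885 CPM; 2 of 8 rose), and 2 of 7 listed mesothelial and epithelial markers rose. Their sums were 30.8, 30.8 and 19.2 CPM on chow and 44.5, 41.8 and 137 CPM on HFD, without overlap and with HFD replicate 3 far above the rest. Krt8 was at 0 reads in chow replicate 3. Rab27b was also highest in HFD replicate 3, and the part of these markers in that value was not tested. The 11 fat cell markers summed to 18516 to 28990.2 CPM on chow and 16093 to 18224 CPM on HFD, with 6 lower and 1 (Lep) higher. The macrophage, endothelial and smooth muscle sums were higher on HFD, as were Rab7b, Rab27a, Rab27b, Rab6b, Rab29, Rab30, Rab31, Rab32, Rab38 and Rab22a. Within HFD, the macrophage and endothelial sums were highest in replicate 1 (580.2 and 286 CPM). Rab7b and Rab27a were also highest in that library, while the other Rab genes just named were lowest there. The smooth muscle and pericyte sums had another order, with 875, 972 and 664 CPM in HFD replicates 1, 2 and 3. The part of these markers in the rises and falls of the Rab genes was not tested. In bulk RNA, fewer cells of a type and less RNA per cell cannot be told apart.

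**Figure D4:**
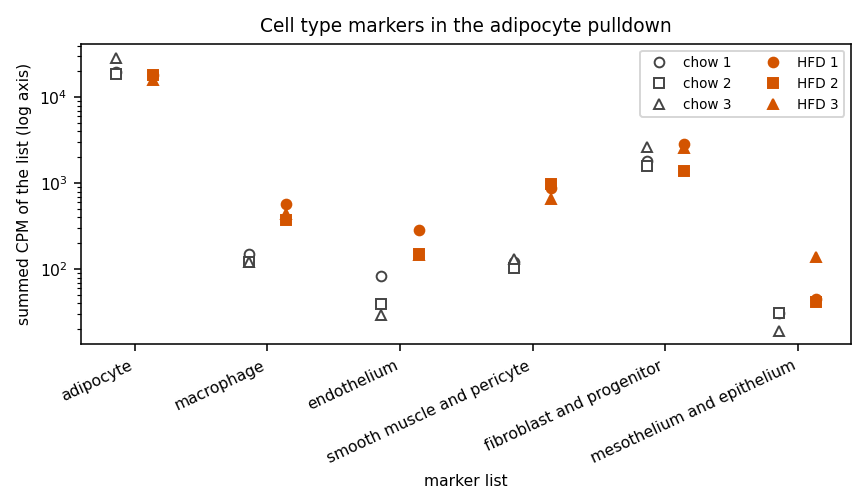
Summed CPM (y axis, log scale) of 6 marker lists (x axis) in each library, with open grey marks for chow, filled orange marks for HFD and shapes for the replicate. The macrophage sums are 121 to 150.0 CPM on chow and 370.0 to 580.2 CPM on HFD, and the fibroblast sums overlap.

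Of 192 listed genes of the Rab cycle and GLUT4 vesicles (of 215 in the lists), 31 rose and 23 fell, 28.1% against 35.1% of all genes, with a median log2 fold change of 0.07. The shares were not tested against each other. The part of the cell type markers in the changes of these 192 genes was not tested either. Equal CPM totals gave 39 and 12. The lower count was 14 without chow replicate 1, and 11 and 9 without HFD replicates 2 and 3 in turn. Among 16 genes of prenylation, membrane insertion and extraction, 2 rose and 1 fell (18.8% called). Yipf1 and Yipf3, Golgi membrane proteins of a family that binds Rabs, rose from 26.5 ± 1.66 to 55.8 ± 4.09 CPM and from 43.8 ± 4.02 to 65.8 ± 4.89 CPM (SD, n = 3).

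Of 49 exchange factors 8 rose and 6 fell (28.6% called, against 35.1% of all genes; median 0.03). Dennd4a, a DENN-domain exchange factor, rose from 59.3, 58.1 and 27.3 CPM on chow to 186, 170.1 and 193 CPM on HFD, with chow replicate 3 well below the other chow libraries (1.98, SE 0.26, limma adjusted p 0.000496). Rin3, which activates Rab5 and Rab31, rose from 2.73 ± 0.370 to 8.80 ± 3.12 CPM, and Rab3il1, an exchange factor for Rab8, from 9.14 ± 1.98 to 24.6 ± 5.32 CPM (SD, n = 3). Their log2 fold changes were 1.35 and 1.33. Dennd2d, another DENN-domain gene, fell from 212, 176 and 170.1 CPM on chow to 69.6, 74.5 and 58.1 CPM on HFD (-1.45, SE 0.14, limma adjusted p 0.000108). Dennd2a, which activates Rab9, fell by 0.77 and Smcr8, the partner of the C9orf72 protein, fell by 0.62 on the log2 scale.

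Of 37 GTPase-activating proteins 6 rose and 7 fell (35.1% called, as among all genes; median 0.07). Tbc1d4, also called AS160, which insulin signalling inhibits to release GLUT4 vesicles, fell from 190.0, 209 and 218 CPM on chow to 140.1, 124 and 138 CPM on HFD. The groups were clearly apart (-0.62, SE 0.12, limma adjusted p 0.00395). Tbc1d1, its relative best known from muscle, rose from 20.1, 17.0 and 16.8 to 30.7, 26.9 and 28.6 CPM, also without overlap (0.65, SE 0.15, limma adjusted p 0.00810). Tbc1d9 (1.29), Grtp1 (1.26) and Tbc1d8 (0.95) had the largest rises among the genes of the list that passed. Sgsm2, which acts on Rab32 and Rab38, fell from 54.0 ± 10.5 to 25.3 ± 3.30 CPM (SD, n = 3; -1.06, limma adjusted p 0.00155). Tbc1d17 fell by 0.52 on the log2 scale, and its call was lost with equal CPM totals (adjusted p 0.0542) and without chow replicate 1 or 3 or HFD replicate 2 or 3 (0.0622, 0.0664, 0.0815 and 0.114).

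Of 73 effectors 13 rose and 4 fell (23.3% called, against 35.1% of all genes; median 0.11). The list holds 5 genes of the MICAL family, which links Rabs to actin and membrane tubules. Mical1 (0.30, limma adjusted p 0.137) and Mical3 (-0.25, limma adjusted p 0.347) did not pass. Micall2, an effector of Rab8 and Rab13, rose from 0.655, 0.532 and 0.818 CPM on chow, all under 1 CPM, to 6.68, 5.06 and 7.52 CPM on HFD (2.14, SE 0.25, limma adjusted p 0.000266). It passed the filter on low values only through HFD, and with no filter its limma adjusted p was 0.000208. On the deposited log2 values its change was 3.27. Mical2, an enzyme that oxidizes actin, rose from 14.5 ± 3.67 to 68.2 ± 22.2 CPM (SD, n = 3; 2.14). Micall1, which builds recycling tubules, fell from 127, 171 and 153 CPM on chow to 67.2, 48.5 and 52.0 CPM on HFD (-1.42, SE 0.16, limma adjusted p 0.000243). Lrrk1, a kinase of Rab7, rose from 9.51, 7.73 and 5.39 to 34.3, 23.4 and 40.8 CPM (1.98, SE 0.25, limma adjusted p 0.000377). Osbpl1a, the Rab7 effector ORP1L that senses cholesterol on late endosomes, fell from 175, 169 and 165 to 68.6, 78.8 and 77.7 CPM (-1.17, SE 0.12, limma adjusted p 0.000112). Rab11fip2, which ties Rab11 to a myosin motor, fell by 0.63 on the log2 scale.

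Of 17 genes of GLUT4 vesicle cargo and tethering, 2 rose and 5 fell (41.2% called, against 35.1% of all genes; median -0.04). Lnpep, the aminopeptidase that travels with GLUT4, fell from 787, 714 and 843 CPM on chow to 523, 553 and 491 CPM on HFD (-0.58, SE 0.13, limma adjusted p 0.00767). Tusc5, a membrane protein that aids GLUT4 recycling in fat cells, rose from 553, 580.0 and 560.3 CPM on chow to 891, 989 and 910.2 CPM on HFD (0.72, SE 0.12, limma adjusted p 0.00201). Among the SNARE genes of vesicle fusion, Snap23 rose from 62.1 ± 8.53 to 105 ± 18.8 CPM (SD, n = 3; 0.75). Stx4a fell from 78.9 ± 32.1 to 38.4 ± 7.13 CPM (-0.96) and Vamp2 from 40.6 ± 8.73 to 26.9 ± 3.88 CPM (-0.57). Leaving out HFD replicate 2 or 3 ended the Stx4a call (limma adjusted p 0.0741 and 0.0567). The Vamp2 call, at adjusted p 0.0437, was lost with equal CPM totals (0.0739), with voom weights (0.0601), and without chow replicate 1 or 3 or HFD replicate 1, 2 or 3 (0.102, 0.117, 0.0593, 0.146 and 0.0890).

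**Figure D5:**
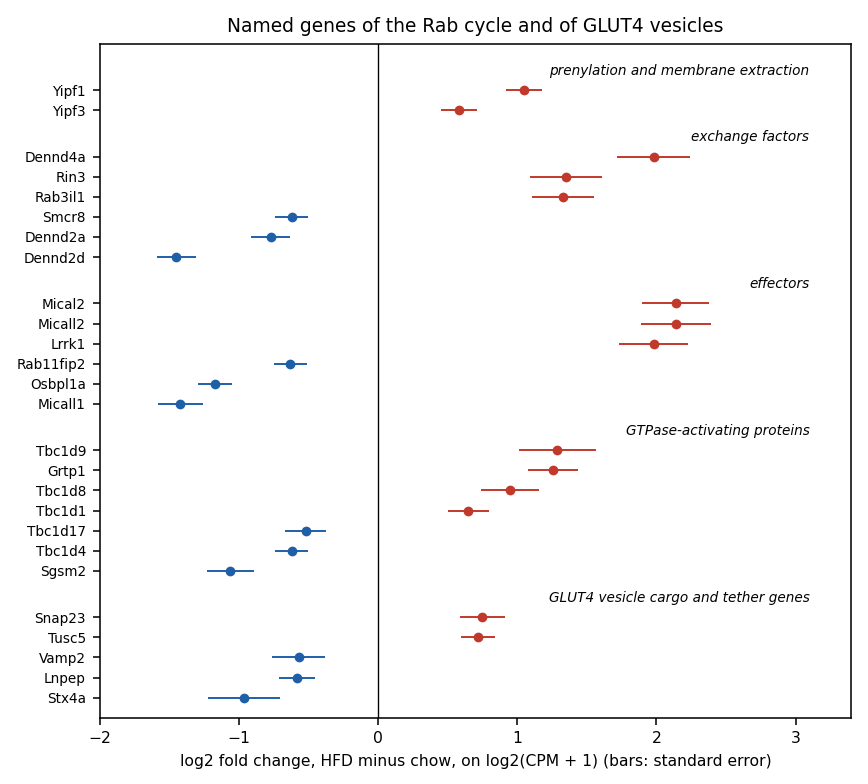
Each point is the log2 fold change (HFD minus chow, on log2(CPM + 1), x axis) of a named regulator, effector or GLUT4 vesicle gene (y axis, grouped by list), with its standard error as a bar. Red points rose and blue points fell at the threshold, with Micall2 and Mical2 at 2.14 and Dennd2d at -1.45 at the ends.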

How the data were processed

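The deposited table of the 6 RNA libraries holds log2 CPM values per gene; per the submitters' processing notes, HISAT2, Picard, featureCounts and edgeR were among the authors' tools and mm10 was the build, with roles, versions, low-gene filter and prior count not given in the sources used here. A log2 scale follows from values below 0 whose anti-logs total 984422 to 1182123 per library. Each value was turned back to CPM as a power of 2. Subtracting the lowest value of the table (-6.85 on the log2 scale) and reading the steps between low values gave effective library sizes of 7430000 to 39400000 reads, with 100% of values under 20 reads whole within 0.1 of a read. Depth limits and read counts cover counting error only. Genes averaging 1 CPM or more (11643 of 11761) entered a limma fit (limma 3.58.1, R 4.3.3) on log2(CPM + 1), with a mean-variance trend, two-sided, 3 HFD against 3 chow libraries, Benjamini-Hochberg over all tested genes, threshold 0.05. The design assumed linear CPM, and the pseudocount of 1 CPM was kept. The script was tested on simulated data. Intervals are 95% from the same fit. Alternatives were the deposited log2 CPM, a pseudocount of 0.25, no filter, a filter at 5 CPM, quantile normalization, equal CPM totals, voom weights on recovered reads, the replicate number as a block, and leaving out each library. Leaving out a library keeps the spread pooled over all genes.

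The members and lists were chosen with earlier results of these data known. Every Rab gene is accounted for; values per library are given for members that passed and for members of fixed roles. From each list of the Rab cycle, up to 3 risen and 3 fallen genes with the largest change are named, with Tbc1d4 and Tbc1d1 in any case. Where a symbol had several rows (Lnpep and Evi5l in the lists), the row with the higher mean was used. Reads of relatives or processed copies could be shared among Rab genes, and how the authors counted them is not given in the sources used here. Positions and promoter windows are from RefSeq on GRCm38.p6, the assembly that mm10 denotes; all 43 members were found there. Windows on the chromosome of Rab18 and Rab27b were not used here. Some genes of the lists are not reported here.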

Additional observations from a re-analysis of the deposited data

How the results depend on the processing

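Over 14 alternatives, no Rab gene that passed changed direction. Of 15 that passed, 5 did so in every alternative; Rab27a and Rab27b were not tested with the filter at 5 CPM. The count of risen Rab genes (10) was 6 with quantile normalization and 4 to 9 when a library was left out. The count of fallen Rab genes (5) was 3 with equal CPM totals, 8 with the replicate block and 2 to 5 when a library was left out. Fallen genes of the Rab cycle and GLUT4 vesicles (23) numbered 12 with equal CPM totals and 9 to 18 with a library left out. All fallen genes (1863) numbered 1333 with equal CPM totals and 1162 to 1740 with a library left out. All risen genes (2221) numbered 1984 with quantile normalization and 1688 to 2101 with a library left out. Fewer libraries were used in those fits; the cause of the other shifts was not tested.

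Signs turned for Rab genes near 0 that did not pass. Rab11a was 0.05 with quantile normalization, 0.09 with equal CPM totals, 0.0015 with voom weights, and -0.13 to 0.10 with a library left out. Rab11b was 0.0046 with equal CPM totals. With a library left out, Rab13 was -0.05 to 0.28, Rab1a -0.02 to 0.19, Rab2a -0.04 to 0.19 and Rab43 -0.03 to 0.34.

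The labels do not say that a replicate number marks a shared animal, batch or day. Deviations of same-numbered libraries from their group means had correlations of 0.433, 0.232 and 0.0862, and chow replicate 3 correlated best with HFD replicate 2 (0.150), so the replicate block was used only as an alternative. It gave 11 risen and 8 fallen Rab genes, with Rab4a, Rab9, Rab18 and Rab24 newly passing (adjusted p 0.0481, 0.0353, 0.0224 and 0.0282), and 2594 risen and 2245 fallen genes in all. The depth of chow replicate 3 limits genes under 0.404 CPM there, such as Rab27a and Rab27b.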
